A study of Mus musculus with 2 samples.

Results

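Fibroblasts that make small leucine-rich proteoglycans were examined as the cells of a mouse embryonic fibroblast (MEF) culture with the most transcripts of Dcn, Lum and Aspn, the genes of decorin, lumican and asporin. Each MEF cell with at least 5000 UMIs, at least 500 genes and at most 20% of its UMIs in mitochondrial genes was ranked by the summed CPM of these 3 genes, where CPM is a gene's UMIs scaled to the same total in every cell or group. A unique molecular identifier (UMI) marks 1 captured RNA molecule in the droplet assay used here. Of 5761 ranked cells, the 576 with the highest sum are called high cells, and the 576 with the lowest sum are called low cells. Both groups were chosen by the measured counts of these 3 genes, so their own levels and every difference between the groups describe this library and carry no test.

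The series holds 2 mouse libraries of 1 sample each, both from cells of the genotype Tg:Pax7-nGFP/C57BL6;DBA2, which carry a Pax7 reporter transgene on a mixed background. The MEF library came from fibroblasts kept in MEF media. Induced myogenic progenitor cells, the source of the iMPC library, were made from fibroblasts with MyoD, a master regulator of muscle, and a treatment abbreviated F/R/C in the labels. How many embryos gave the fibroblasts, and whether they were pooled, is not given in the sources used here. High and low cells thus share 1 culture and 1 library, and no replicate check was possible. Intervals below are exact at 95% and reflect the error of counting alone.

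Small leucine-rich proteoglycans are secreted proteins with a curved core of leucine-rich repeats, and most carry glycosaminoglycan chains, keratan sulfate among them. They bind fibrillar collagen, set the width and spacing of its fibrils, and can hold growth factors such as TGF-beta in the matrix. Decorin is the common form of loose connective tissue, lumican is abundant in cornea and skin, and asporin, a relative of decorin with a run of aspartate residues, is known from cartilage, tendon and periosteum. Fibroblasts that contract their matrix instead build stress fibres of smooth muscle actin and are known as myofibroblasts.

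The MEF matrix listed 6113 barcodes with 118541302 UMIs, of which 339 barcodes lay under 5000 UMIs and 13 more failed the other limits. High cells had a median of 16611.5 UMIs (range 5300 to 44469) and 4047.5 genes, and low cells a median of 14011 UMIs (5004 to 46869) and 3614.5 genes, against 19509 UMIs over all ranked cells. Mitochondrial genes took 6.35% of UMIs in high and 5.77% in low cells, and ribosomal protein genes took 21.4% and 22.5%. Under the same limits 9743 iMPC cells remained, so the series held 15504 such cells. Kept cells of the 2 libraries shared 15 barcodes, of which 4 were high and 2 were low cells.

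The last cell taken into the high group had 1078 CPM of the 3 genes together and the first cell left out had 1076 CPM, so the edge falls inside a continuous range. Over all ranked cells the median was 284 CPM, and the high cells ran from 1078 through a median of 1456 to 6074 CPM. At the other end, 696 cells (12.1%) had no UMI of any of the 3 genes. The low group is the first 576 of these in matrix order, which left out 120 equal cells. It stood apart in depth: with the ranked cells in 10 groups, the median was 13957 UMIs in the lowest, 22495 in the next and 16611.5 in the highest. A ranking within bins of equal depth is given further below.

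Decorin led the score. In high cells Dcn stood at 1147 CPM and gave 72.0% of the score's UMIs, Aspn stood at 263 CPM and gave 16.5%, and Lum stood at 183 CPM and gave 11.5%. Over all ranked cells the levels were 268, 114 and 33.9 CPM. All 576 high cells had a Dcn UMI, 443 (76.9%) had an Aspn UMI and 351 (60.9%) had a Lum UMI, and 272 (47.2%) had all 3. When the ranked cells were divided into 10 groups, from group 1, the lowest, to group 10, the highest, Aspn went from 226 CPM in group 9 to 263 CPM in group 10, Dcn from 576 to 1147 CPM and Lum from 66.4 to 183 CPM.

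How far the 3 genes lay in the same cells is given as a description, since all of them made the ranking. With each cell thinned to 5000 UMIs, Lum was found in 15.9% of cells with a Dcn UMI and in 4.34% of cells without one. Aspn was found in 39.1% of cells with and 29.8% of cells without a Dcn UMI, a smaller gap. The 576 cells with the most Dcn shared 448 (77.8%) with the high cells, those with the most Lum shared 254 (44.1%), and those with the most Aspn shared 182 (31.6%). Dcn gives most of the score, so its larger share follows in part from the sum. Each such top holds 10% of the ranked cells, and the tops had 197 cells (34.2%) in common for Dcn and Lum, 91 (15.8%) for Dcn and Aspn and 87 (15.1%) for Lum and Aspn.

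The high cells had the transcripts of fibroblasts. A list of 8 fibroblast markers summed to 11800 CPM in high and 8355 CPM in low cells, with 5 members higher and 3 lower in high cells. The higher sum came mostly from Col1a1, Col1a2 and Col3a1, which return among the collagens below. Vim, the intermediate filament vimentin, stood at 3622 and 4154 CPM, and Thy1, a surface protein of fibroblasts, at 643 and 652 CPM. Lists of markers of 12 other cell types summed to between 0.198 and 40.1 CPM in high cells, with the exception of the osteoblast list at 683 CPM (844 CPM in low cells), nearly all of it from Spp1, the gene of osteopontin. The 40.1 CPM were those of the chondrocyte list, nearly all from Sox9. Pax7, Myf5, Myog and Mymk of muscle, Cdh5, Kdr and Emcn of endothelium, and Ptprc, Tyrobp and Adgre1 of immune cells had no UMI in either group. Adipoq, Plin1, Krt5, Krt14, Cdh1, Acan and Ibsp had none either. Fibroblast genes thus match the label, and the words proteoglycan-high rest on the ranking genes alone.

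Of these 12 lists, 10 summed higher in low than in high cells, and the immune (5.14 and 2.71 CPM in high and low cells) and chondrocyte lists summed higher in high cells. The neuron list summed to 24.8 CPM in high and 141 CPM in low cells, almost all from Stmn2, a tubulin-binding stathmin of growing neurites. The mesothelial list summed to 1.38 and 17.9 CPM, with Msln at 4 UMIs in high and 92 in low cells and Upk3b at 0 in both. Fabp4, a lipid carrier of adipocytes, had 8 and 180 UMIs, the epithelial keratin Krt18 had 85 and 319, and the mural list summed to 29.5 and 78.8 CPM. Of its 3 measured genes only Myh11 was lower in high cells, at 2.08 against 57.7 CPM, while Notch3 (14.6 and 9.22 CPM) and Cspg4 (12.1 and 10.1 CPM) were not. The tendon list summed to 6.43 and 11.4 CPM, the glia list to 1.48 and 2.82 CPM, and the myogenic and endothelial lists to less than 1 CPM in both groups. These values moved with the ranking, and their part in the differences below was not tested.

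High cells had more transcripts of fibril-forming, fibril-associated and microfibrillar collagens and fewer of the contractile and cell cycle lists. A gene was measured when it had at least 10 CPM over all ranked cells, which left 7598 genes without the ranking genes. Of these, 202 (2.66%) were at least 2-fold higher in high cells and 165 (2.17%) at least 2-fold lower. At 1.5-fold the counts were 846 (11.1%) and 361 (4.75%). The median gene stood 0.15 higher on the log2 scale in high cells, and list medians below are to be read beside that 0.15. Counts of list members past 2-fold are likewise to be read beside the 2.66% and 2.17%. The share of all measured genes above 0 is not given here. Every measured gene rested on at least 156 UMIs in both groups together.

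**Figure D1:**
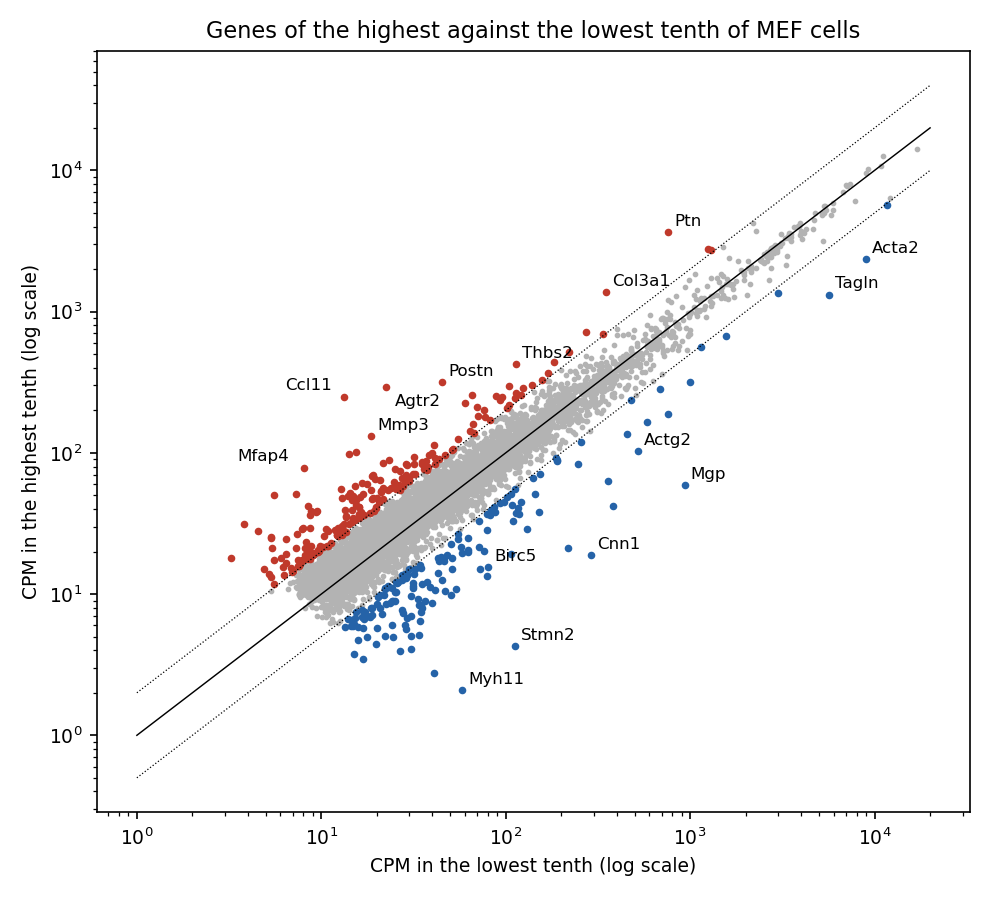
Each point is 1 of 7598 measured genes, with its CPM in low cells on the horizontal and in high cells on the vertical axis, both on a log scale. The solid line marks equal levels and the dotted lines 2-fold, and genes beyond them are red (202 higher) or blue (165 lower).

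The highest ratio belonged to Ccl11, the eosinophil-attracting chemokine eotaxin, at 251 CPM in high and 13.2 CPM in low cells. The log2 ratio was 4.24 (3.98 to 4.52). These transcripts were concentrated in few cells: the median high cell had none, the highest had 12145 CPM, and 73.0% of the group's Ccl11 UMIs came from the 5% of cells with the most. At 5000 UMIs per cell, 20.1% of high and 3.30% of low cells had a Ccl11 UMI, and without thinning the shares were 28.8% and 5.90%. How much free RNA the MEF droplets held was not measured, so the share in low cells is the reference given beside each share here.

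Agtr2, the angiotensin receptor of fetal connective tissue, was more widely spread. It stood at 292 CPM in high and 22.6 CPM in low cells, a log2 ratio of 3.69 (3.49 to 3.90). An Agtr2 UMI was found in 57.1% of high and 9.03% of low cells at 5000 UMIs, and the median high cell had 193 CPM against 0 in low cells. The 5% of high cells with the most held 23.8% of the group's Agtr2 UMIs, so that Agtr2 was spread over many more cells than Ccl11.

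Ptn, the heparin-binding growth factor pleiotrophin, was the most abundant of the 15 largest ratios. Its level was 3665 CPM in high and 761 CPM in low cells, a log2 ratio of 2.27 (2.23 to 2.31), and 91.1% and 53.5% of cells had a UMI at 5000 UMIs. Ly6h (log2 ratio 3.18), Ptprd (2.83), Cpxm1 (2.71), Adam33 (2.11), Igsf10 (1.97) and Cdo1 (1.95) completed the set together with the matrix, protease and Wnt genes described below.

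Of the other 15 genes of the small leucine-rich proteoglycan family, 4 were measured, and they did not move as a family. Ogn, the gene of osteoglycin, stood at 83.5 CPM in high and 28.7 CPM in low cells, a log2 ratio of 1.54 (1.34 to 1.75). Bgn, the gene of biglycan and the closest relative of decorin, was far more abundant and nearly even, at 1611 and 1441 CPM, a log2 ratio of 0.16 (0.13 to 0.19) that matches the median gene. Podn was at 14.5 and 9.22 CPM. Optc, the gene of opticin, was lower in high cells, at 3.76 against 14.97 CPM, a log2 ratio of -1.99 (-2.55 to -1.47).

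Some members under 10 CPM had more counts in high cells. Kera, the gene of keratocan, had 32 UMIs in high cells and 0 in low cells, at least 9.72-fold higher when low cells are set to a floor of 3 UMIs over the group. Prelp had 59 and 13 UMIs, and Omd, the gene of osteomodulin, had 37 and 9. Fmod, the gene of fibromodulin, had 3 and 1, and Epyc, Chad and Nyx had none in either group. Small counts of this kind place Kera, Prelp and Omd higher in high cells but leave their levels near the limit of detection.

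Several of these genes lie next to relatives on the chromosome (RefSeq, GRCm38.p6). Dcn (chr10:97479500-97518163), Lum (chr10:97565501-97572703), Kera (chr10:97606962-97613688) and Epyc (chr10:97644068-97681908) follow one another. Ecm2 (chr13:49504810-49532789), Aspn (chr13:49544443-49567565), Omd (chr13:49582462-49592612) and Ogn (chr13:49608015-49624501) form the other group, within the span of Cenpp (chr13:49464025-49652950). Because Cenpp overlaps them, the counts of Aspn, Omd and Ogn are uncertain to the extent that reads were assigned without strand. In the Dcn cluster, Kera was seen in high cells and Epyc was not. In the Aspn cluster, Omd and Ogn were higher in high cells, while Ecm2 had 1 UMI against 0.

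Large and cell surface proteoglycans and the enzymes that build their chains differed little as lists. Of 12 measured proteoglycans, 3 were at least 2-fold higher, against 2.66% of all measured genes, and 0 lower. The median log2 ratio was 0.17. Those 3 were Gpc6, a glypican anchored in the membrane, at 1.55, Tgfbr3, the TGF-beta co-receptor betaglycan, at 1.47, and Vcan, the large hyaluronan-binding versican, at 1.13. Vcan had 302 CPM in high and 138 CPM in low cells. Among 19 measured genes of glycosaminoglycan synthesis the median was 0.29, and 1 passed 2-fold, against the same 2.66%. That gene was Csgalnact1, whose enzyme starts chondroitin sulfate chains, at 38.0 CPM in high and 9.33 CPM in low cells, a log2 ratio of 2.03 (1.69 to 2.38).

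Collagens of a list that joins fibrillar, fibril-associated and microfibrillar chains were higher without exception. All 11 measured genes lay above 0, 6 of them at least 2-fold against 2.66% of all measured genes, and the median log2 ratio was 1.05. Col3a1, the chain of the type III collagen of soft tissue, stood at 1381 CPM in high and 348 CPM in low cells, a log2 ratio of 1.99 (1.93 to 2.05), with a UMI in 94.97% and 54.2% of cells at 5000 UMIs. The microfibrillar collagen genes Col6a2 (log2 ratio 1.51), Col6a1 (1.25) and Col6a3 (1.05) followed, with Col12a1 (1.11) and Col1a2 (1.07). Col1a1 had 2855 and 1498 CPM, a log2 ratio of 0.93 (0.90 to 0.96).

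Collagen-modifying enzymes followed less closely than the collagens themselves. Of 20 measured genes, 1 was at least 2-fold higher, against 2.66% of all measured genes, and 0 lower. The median log2 ratio was 0.34. Adamts2, the peptidase that trims procollagen, stood at 49.7 CPM in high and 14.9 CPM in low cells, a log2 ratio of 1.74. Pcolce, an enhancer of procollagen cleavage, was at 0.78, and Pcolce2, its relative, at -0.99. Of 9 measured basement membrane genes 2 passed 2-fold, against the same 2.66%: Lama4 at 1.88 and Col18a1 at 1.07. The list median was 0.60.

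Elastic fibre genes were mostly higher. Of 13 measured, 5 were at least 2-fold higher, against 2.66% of all measured genes, and 0 lower. The median log2 ratio was 0.74. Mfap4, a microfibril-associated glycoprotein, had 78.5 CPM in high and 8.03 CPM in low cells, a log2 ratio of 3.29 (2.95 to 3.65). Mfap2 (1.51), Fbn2 (1.26), Fbln1 (1.15) and Fbn1 (1.09) were the others. Fibrillins build the microfibril scaffold, and the microfibril-associated proteins bind to it.

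Matricellular proteins, which sit in the matrix and signal to cells, split in 2 directions. Postn, the gene of periostin, a collagen-binding protein, stood at 316 CPM in high and 45.0 CPM in low cells, a log2 ratio of 2.81 (2.66 to 2.96), with a UMI in 60.9% and 14.9% of cells at 5000 UMIs. Thbs2, the gene of an antiangiogenic thrombospondin, stood at 424 and 113 CPM, a log2 ratio of 1.90. Ccn2, which encodes connective tissue growth factor, was lower in high cells, at 38.4 against 151 CPM, a log2 ratio of -1.98 (-2.14 to -1.81). Over the 13 measured members the median was 0.37, with Fn1, Thbs1 and Igfbp7 between 0.00 and 0.24.

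Proteases of the matrix were higher as well. Of 16 measured proteases and inhibitors, 6 were at least 2-fold higher and 1 lower, against 2.66% and 2.17% of all measured genes. The median log2 ratio was 0.75. Ctsk, the collagen-cutting cathepsin K, had 256 CPM in high and 65.4 CPM in low cells, a log2 ratio of 1.97 (1.84 to 2.10). Ctsl, a lysosomal cathepsin, was the most abundant, at 2788 and 1249 CPM. Mmp3, the gene of stromelysin, had a higher ratio of 2.81 (2.58 to 3.05), but 77.8% of its UMIs in high cells came from the 5% of cells with the most, and 13.0% of high and 4.17% of low cells had any at 5000 UMIs. Plau, the gene of urokinase, was lower, at a log2 ratio of -1.06.

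Some chemokine genes were higher together with Ccl11. Of 10 measured complement and cytokine genes, 5 were at least 2-fold higher, against 2.66% of all measured genes, and 0 lower by that much. The median log2 ratio was 0.96. Ccl2, a chemokine for monocytes, stood at 722 CPM in high and 271 CPM in low cells, a log2 ratio of 1.41 (1.35 to 1.48), and Ccl7 at 695 and 336 CPM, a ratio of 1.05. Both neighbour Ccl11 on chromosome 11. Cxcl12, which retains blood stem cells in their niche, had 286 and 125 CPM, and Serping1, the inhibitor of complement C1, was at 1.54. The chemokine genes Cxcl5 (28.4 and 30.9 CPM) and Cxcl14 (15.6 and 17.04 CPM) and the cytokine and receptor genes Csf1 (92.2 and 113 CPM) and Il1rl1 (82.4 and 97.3 CPM) had ratios below 0.

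Secreted Wnt regulators and growth factor genes gave smaller sets. Of 6 measured Wnt genes 3 were at least 2-fold higher, against 2.66% of all measured genes. Sfrp2 stood at 98.3 CPM in high and 14.1 CPM in low cells (log2 ratio 2.80, 2.54 to 3.08). Sfrp1 stood at a log2 ratio of 1.39 and, like Sfrp2, is a decoy for Wnt proteins. Wnt5a, a Wnt ligand, was at 1.22. In the insulin-like growth factor axis, 8 genes were measured with a median of 0.38. Igfbp5 was higher at 36.1 against 8.68 CPM and Igfbp4 lower at 20.1 against 76.0 CPM, both genes of binding proteins. Igf1, below the limit of 10 CPM, had 146 and 55 UMIs.

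Receptors and transcription factors of mesenchyme were uneven. Pdgfra, the platelet-derived growth factor receptor of fibroblast progenitors, stood at 113 CPM in high and 40.9 CPM in low cells, a log2 ratio of 1.47 (1.30 to 1.64). S100a4, often called fibroblast-specific protein, was lower at 285 against 688 CPM, a ratio of -1.27, and Mcam was at -1.50. Of 15 measured mesenchymal transcription factors 1 was at least 2-fold higher, where the share of all measured genes was 2.66%. It was Ebf1, at 93.98 against 31.7 CPM (log2 ratio 1.57), and the list median was 0.52. Twist2 was at 0.92 and Prrx1 at -0.17.

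Hox genes, which record the position of a cell along the body axis, were higher for 14 of 15 measured members, where the median gene also stood 0.15 higher. At 1.5-fold or more, 13 of the 15 were higher, against 11.1% of all measured genes. Past 2-fold there were 4, against 2.66%: Hoxc10 at 1.77, Hoxd8 at 1.14, Hoxb7 at 1.07 and Hoxc9 at 1.06. The list median was 0.82. Hoxc10 had 29.6 CPM in high and 8.68 CPM in low cells. Genes of the distal limb went the other way at low counts. Hoxd13 had 0 UMIs in high and 92 in low cells, Hoxd11 had 3 and 95, and Hoxa13 had 0 and 24, genes chosen for mention after their values had been seen.

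Contractile genes were lower in high cells. All 15 measured members lay below 0, 9 of them at least 2-fold against 2.17% of all measured genes, with a median log2 ratio of -1.22, and the whole list summed to 9015 CPM in high and 25473 CPM in low cells. Acta2, the smooth muscle actin of stress fibres, stood at 2365 against 8938 CPM, a log2 ratio of -1.92 (-1.94 to -1.90). Tagln, the actin-bundling transgelin, stood at 1321 against 5653 CPM, a ratio of -2.10 (-2.13 to -2.07). The level in the median cell was 1090 CPM of Acta2 in high and 5438 CPM in low cells, so the typical cells differed too.

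Cnn1, the gene of calponin, which inhibits actomyosin, stood at 18.8 CPM in high and 289 CPM in low cells, a log2 ratio of -3.94 (-4.16 to -3.73), with a UMI in 6.08% and 34.9% of cells at 5000 UMIs. Myl9 (-1.67), Lmod1 (-1.74), Tpm2 (-1.22) and Tpm1 (-1.14), genes of a myosin light chain, leiomodin and tropomyosins, were lower by less. Myh11, the smooth muscle myosin heavy chain, had 2.08 and 57.7 CPM, the lowest ratio of all measured genes at -4.80 (-5.50 to -4.17), but 91.0% of its UMIs in low cells came from the 5% of cells with the most. Actin genes have nearly identical coding sequences, so the split of reads between Acta1, Acta2 and Actg2 is uncertain to the extent that reads fell there. Actb, the cytoplasmic actin present in every cell, was also lower, at 5693 against 11725 CPM, a gene named after its value had been seen.

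Other genes with the smallest ratios included Mgp, the matrix Gla protein that inhibits calcification, at 58.9 CPM in high and 933 CPM in low cells, a log2 ratio of -3.99 (-4.11 to -3.87). Of its UMIs in low cells 66.6% came from the 5% of cells with the most. Stmn2 was at 4.25 and 112 CPM, also concentrated, with 86.2% of low-cell UMIs in 5% of cells. Acta1, the skeletal muscle actin, was at -3.36, Actg2 at -2.35, Sprr2k at -3.18, Fhl1 at -2.50 and Ifi27l2b at -2.27. The 13 measured TGF-beta targets had a list median of -0.10, with 3 genes at least 2-fold lower, against 2.17% of all measured genes.

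Many smooth muscle genes are known to be driven by serum response factor through the CArG box, a motif that opens with CC, closes with GG and has 6 bases of A or T between. The 250 bases before each RefSeq start site (first listed start, both strands) were searched for it. It was found in 378 of 27025 promoters (1.40%), in 72 of 6099 measured genes with a promoter (1.18%), in 5 of 119 genes at least 2-fold lower (4.20%) and in 2 of 142 genes at least 2-fold higher (1.41%). Of 12 contractile genes with a promoter, 3 had it (Cnn2, Myl9 and Vcl), and among the 15 smallest ratios it was found for Acta1 and Fhl1. The following stretches end at or shortly before the start site, run 5′ to 3′ on the strand of the gene, leave out annotated exons, and show the CArG match in capitals. They are shown because the genes were lower in high cells and hold the match.
Acta1, chr8:123894776-123894975, minus strand, match 73 to 64 bases before the start: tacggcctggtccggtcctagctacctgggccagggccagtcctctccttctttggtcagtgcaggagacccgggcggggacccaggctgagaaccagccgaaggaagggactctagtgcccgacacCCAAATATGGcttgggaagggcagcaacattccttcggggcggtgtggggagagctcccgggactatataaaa
Fhl1, chrX:56779524-56779682, plus strand, before an internal start of the gene (chrX:56731209-56793346), match 102 to 93 bases before that start: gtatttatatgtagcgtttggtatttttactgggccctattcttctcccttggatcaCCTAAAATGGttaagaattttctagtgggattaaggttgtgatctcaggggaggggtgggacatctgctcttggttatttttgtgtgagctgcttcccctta
Myl9, chr2:156775264-156775407, plus strand, match 161 to 152 bases before the start: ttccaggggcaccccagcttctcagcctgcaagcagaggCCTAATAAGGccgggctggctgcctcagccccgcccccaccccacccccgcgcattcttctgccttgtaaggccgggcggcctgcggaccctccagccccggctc

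A match to these letters is a description of the sequence and not a bound site. The windows of Acta2 and Cnn1 hold no exact match, which says only that these letters are not in these 250 bases.

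Cell cycle transcripts were lower in high cells. All 13 measured G2/M genes were at least 2-fold lower, against 2.17% of all measured genes. Their log2 ratios lay between -1.34 and -2.38, with a median of -2.12. Mki67, the proliferation antigen, stood at 6.73 CPM in high and 29.2 CPM in low cells, and Top2a, the topoisomerase that untangles replicated DNA, at 15.1 and 51.4 CPM, a ratio of -1.76. Birc5, the gene of survivin, had a ratio of -2.38 (-2.64 to -2.13) and Ube2c, a ubiquitin-conjugating enzyme of mitotic exit, -2.19. Of 12 measured S phase genes 6 were at least 2-fold lower, against the same 2.17%. The list median was -1.07, and Rrm2 was the lowest at -2.35.

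Counted by cell, 4.17% of high cells had a Mki67 or Top2a UMI at 5000 UMIs, against 13.0% of low cells and 9.46% of all ranked cells. When the 926 cells with such a UMI at full depth were left out before ranking, the G2/M median went to -0.72 and Cdk1 to 0.15. Mki67 and Top2a belong to the G2/M list and had no counts left, so both were missing from this median. The limit of 10 CPM was also applied again to the remaining cells. In that setting the contractile median was -1.29. Of 12 measured genes linked to growth arrest, 9 lay above 0 and 3 below, where the median of all measured genes was 0.15. Of the 12, 4 were at least 2-fold higher, against 2.66% of all measured genes, and 0 lower by that much. The list median was 0.57. Cdkn1c, the inhibitor of cyclin-dependent kinases known as p57, stood at 250 CPM in high and 95.8 CPM in low cells, a log2 ratio of 1.39. Gas7 (1.11), Gas1 (1.06) and Gas6 (1.03) were the others, and Cdkn2a had 1288 and 840 CPM. Those below 0 were Cdkn1b, the inhibitor p27, at 10.4 against 16.1 CPM, Cdkn2c at 12.7 against 15.7 CPM and Btg2 at 81.6 against 88.2 CPM.

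Promoters of G2/M genes are known for CCAAT boxes, bound by NF-Y, and for the cell cycle homology region (CHR), whose letters here are TTTGAA. In the same 250 bases and on both strands, CCAAT was found in 11 of 12 G2/M promoters (91.7%), in 52.1% of the genes at least 2-fold lower, in 39.4% of those at least 2-fold higher and in 36.6% of measured genes. The CHR letters were found in 6 of 12 G2/M promoters, in 9.92% of measured genes and in 16.3% of all promoters. They did not separate the directions, being found in 15.1% of the genes at least 2-fold lower, in 16.2% of those at least 2-fold higher and in 5 of the 9 promoters matched among the 15 largest ratios. The next stretches are shown because these G2/M genes hold repeated boxes. They run 5′ to 3′ on the strand of the gene, leave out annotated exons, and have CCAAT or its complement ATTGG, and TTTGAA or its complement TTCAAA, in capitals. The printed matches do not overlap each other. Each stretch covers only part of the 250 bases searched, and the CHR match of Ccnb2 is not within its printed stretch.
Cdk1, chr10:69352939-69353062, minus strand: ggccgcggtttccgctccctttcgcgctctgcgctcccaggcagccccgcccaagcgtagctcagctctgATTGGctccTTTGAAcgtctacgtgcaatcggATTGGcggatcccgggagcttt
Ccnb2, chr9:70421555-70421704, minus strand: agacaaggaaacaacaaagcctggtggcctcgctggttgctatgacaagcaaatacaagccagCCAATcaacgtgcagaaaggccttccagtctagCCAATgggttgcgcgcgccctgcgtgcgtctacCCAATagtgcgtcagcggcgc
Top2a, chr11:99024200-99024339, minus strand: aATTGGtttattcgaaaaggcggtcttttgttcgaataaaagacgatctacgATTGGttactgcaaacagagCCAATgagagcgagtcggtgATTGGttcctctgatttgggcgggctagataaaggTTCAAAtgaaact

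The lists are set side by side in the plot of 1 point per measured gene. Lists of matrix, chemokine and Hox genes lie to the right of the median gene, contractile and cell cycle lists to the left, and the other small proteoglycans spread over both sides.

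**Figure D2:**
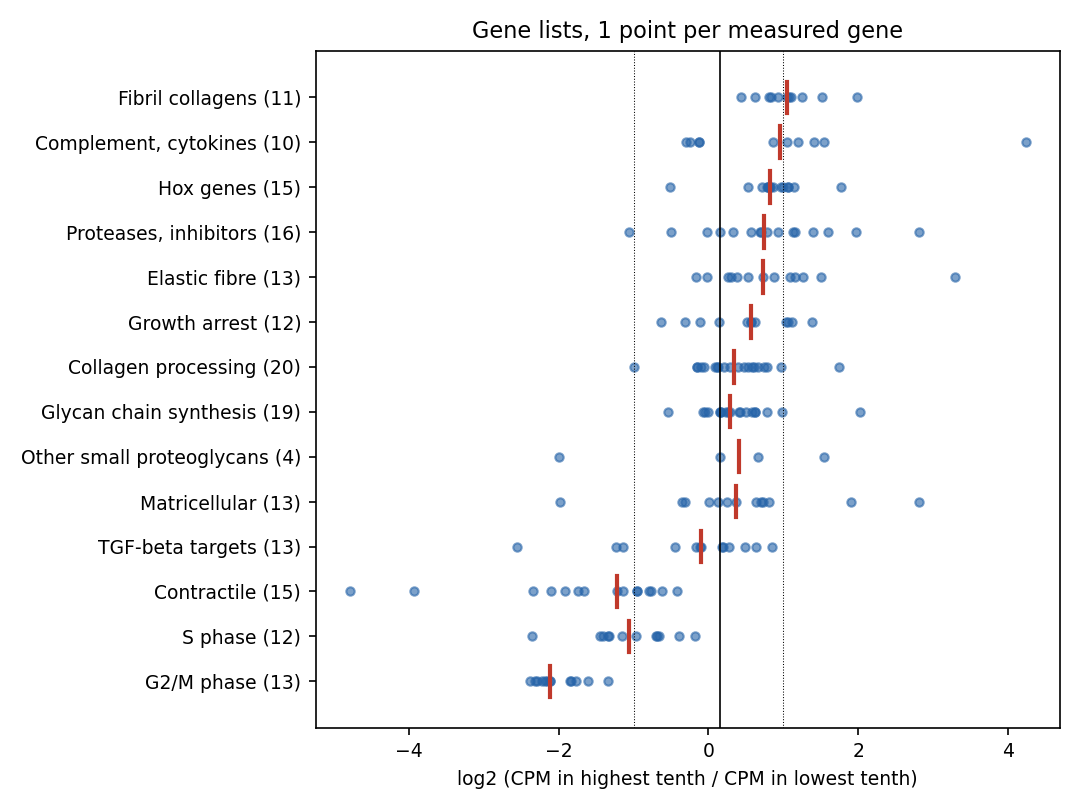
Each point is the log2 ratio of CPM in high over low cells for 1 measured gene of a list, with the number of measured genes in parentheses, the list median as a red bar, the median of all measured genes (0.15) as a solid line and 2-fold as dotted lines. The fibril collagens sit highest at a median of 1.05 and the G2/M genes lowest at -2.12.

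Along the whole ranking, several genes with large differences between its ends were graded and others were not. From group 1 to group 10, Ptn went from 760.3 CPM through 1726 CPM in group 5 to 3665 CPM. Postn went from 45.0 through 138 to 316 CPM and Agtr2 from 22.6 through 71.3 to 292 CPM, each with every group above the one before. Acta2 went down from 8934 through 6297 to 2365 CPM and Cnn1 from 289 through 150 to 18.8 CPM. Ccl11 stayed between 13.2 and 43.6 CPM over the 6 lower groups and then stood at 69.1, 84.3, 181 and 251 CPM. Top2a was highest in group 2, at 61.9 CPM, and stood at 15.1 CPM in group 10.

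**Figure D3:**
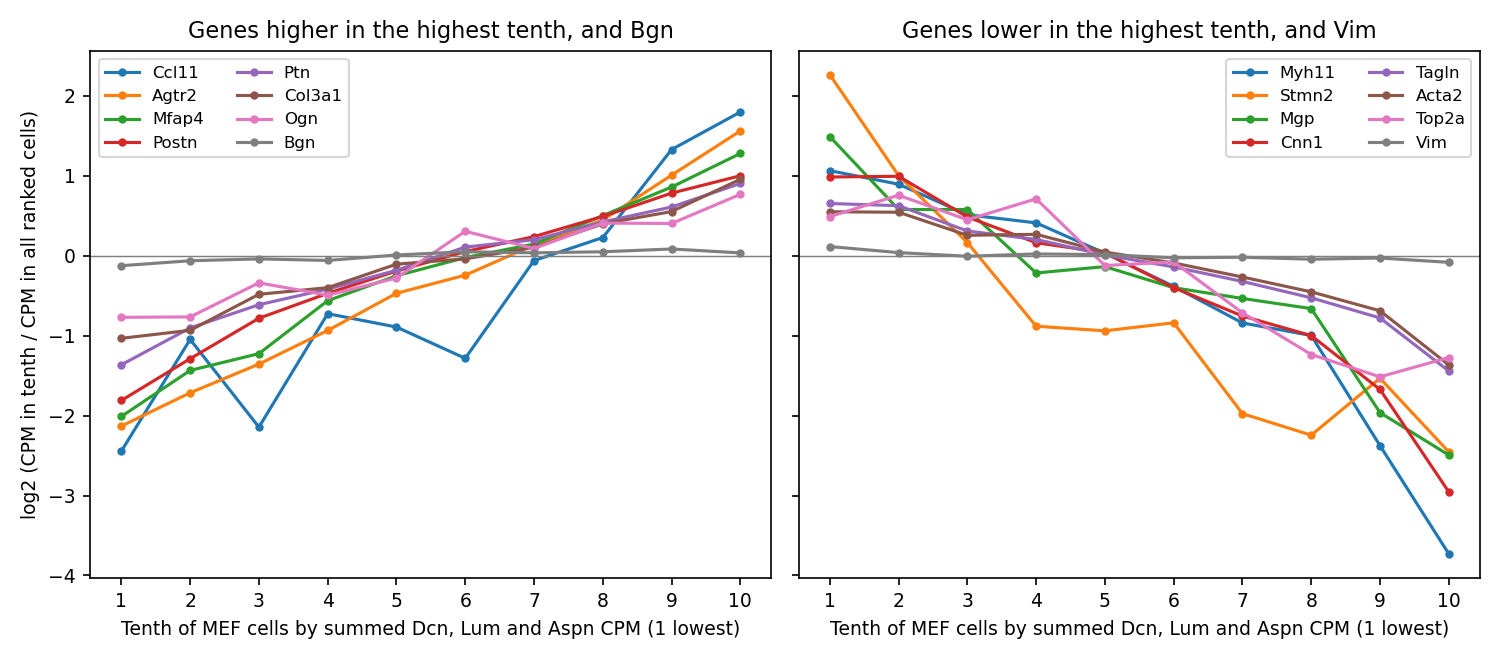
The horizontal axis gives the 10 groups of ranked MEF cells from the lowest to the highest sum of Dcn, Lum and Aspn, and the vertical axis the log2 of a gene's CPM in the group over its CPM in all ranked cells. Agtr2, Postn and Ptn climb at each step, Acta2 and Tagln go down over most steps, and Bgn and Vim stay close to 0.

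Used alone, each of the 3 ranking genes gave its own profile of ratios, and the differences between these profiles, which come from the same cells, were not tested. Ranked on Dcn alone, Ccl11 had a log2 ratio of 3.78, Mmp3 of 3.75 and Sfrp2 of 2.78, and ranked on Aspn alone the ratios were -0.17, -3.02 and -0.70. Ogn was nearly even over Dcn, at 0.25, and high over Aspn, at 2.76. Postn (1.58 over Dcn, 2.42 over Aspn), Ptn (1.10 and 2.04), Mfap4 (1.79 and 2.51) and Col3a1 (1.28 and 1.42) were higher by either gene. Agtr2 was higher by all, at 2.92 over Dcn, 1.43 over Lum and 1.82 over Aspn.

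Contractile genes were lower in cells with much Dcn, while the list median was near 0 in cells with much Aspn. Acta2 had a ratio of -2.09 over Dcn, -1.07 over Lum and 0.06 over Aspn, and Cnn1 had -3.84, -2.27 and -0.39. The list median over Aspn was -0.00268. Top2a had its lowest ratio over Aspn instead, with -1.28 over Dcn, -0.31 over Lum and -2.75 over Aspn. The number of genes at least 2-fold higher was 87 over Dcn, 3 over Lum and 94 over Aspn. Dcn leaves 1386 cells at 0, Lum 4405 and Aspn 2165, so each low group of 576 was taken in matrix order among equal cells. For Lum these equal cells were most of the ranked cells.

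**Figure D4:**
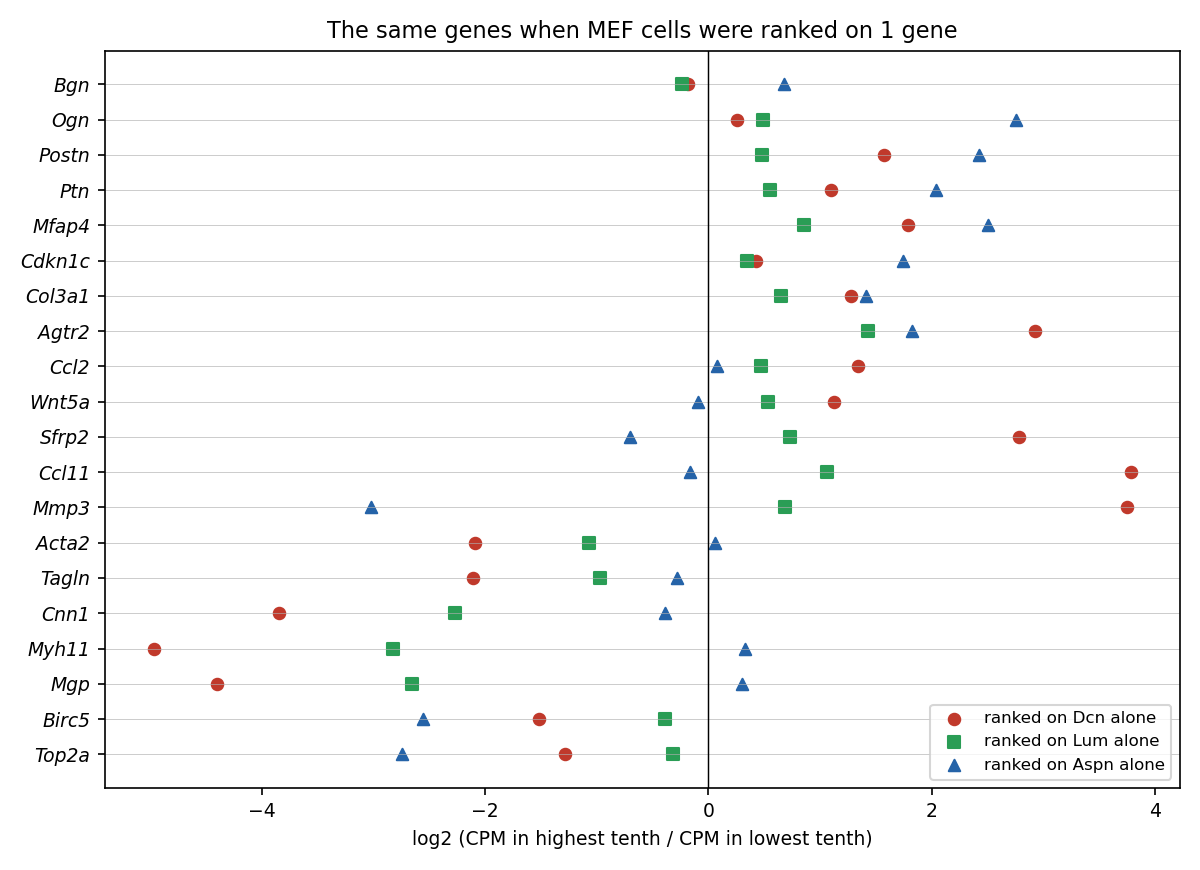
For 20 genes the log2 ratio of CPM in the highest over the lowest 10% of MEF cells is given with cells ranked on Dcn (circles), Lum (squares) or Aspn (triangles) alone. Ccl11, Sfrp2 and Mmp3 lie right of 0 for Dcn and left of 0 for Aspn, and Acta2 lies near 0 for Aspn alone.

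The high cells were also divided by Aspn itself, which helped to choose them, so that cells without it needed more of the other genes to enter. Dcn stood at 1050 CPM in high cells with and 1297 CPM in high cells without an Aspn UMI, and the values are a description that gives no support to the single-gene rankings. At 5000 UMIs, 352 high cells had an Aspn UMI and 224 had none, with close median depths of 16444.5 and 17042 UMIs. Ogn stood at 116 CPM in cells with and 34.2 CPM in cells without, a log2 ratio of 1.76 (1.49 to 2.03). Postn was at 412 and 169 CPM, Ptn at 4736 and 2017 CPM and Cdkn1c at 310 and 158 CPM. Ccl11 was lower with Aspn, at 151 against 404 CPM, a ratio of -1.42 (-1.54 to -1.30). Mmp3 followed at 72.3 against 221 CPM, a ratio of -1.61 (-1.78 to -1.45), and Spp1 at 409 against 1058 CPM. Acta2 was at 2758 and 1761 CPM, a ratio of 0.65. Agtr2, Bgn and Col3a1 differed less, with ratios between 0.41 and 0.45.

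**Figure D5:**
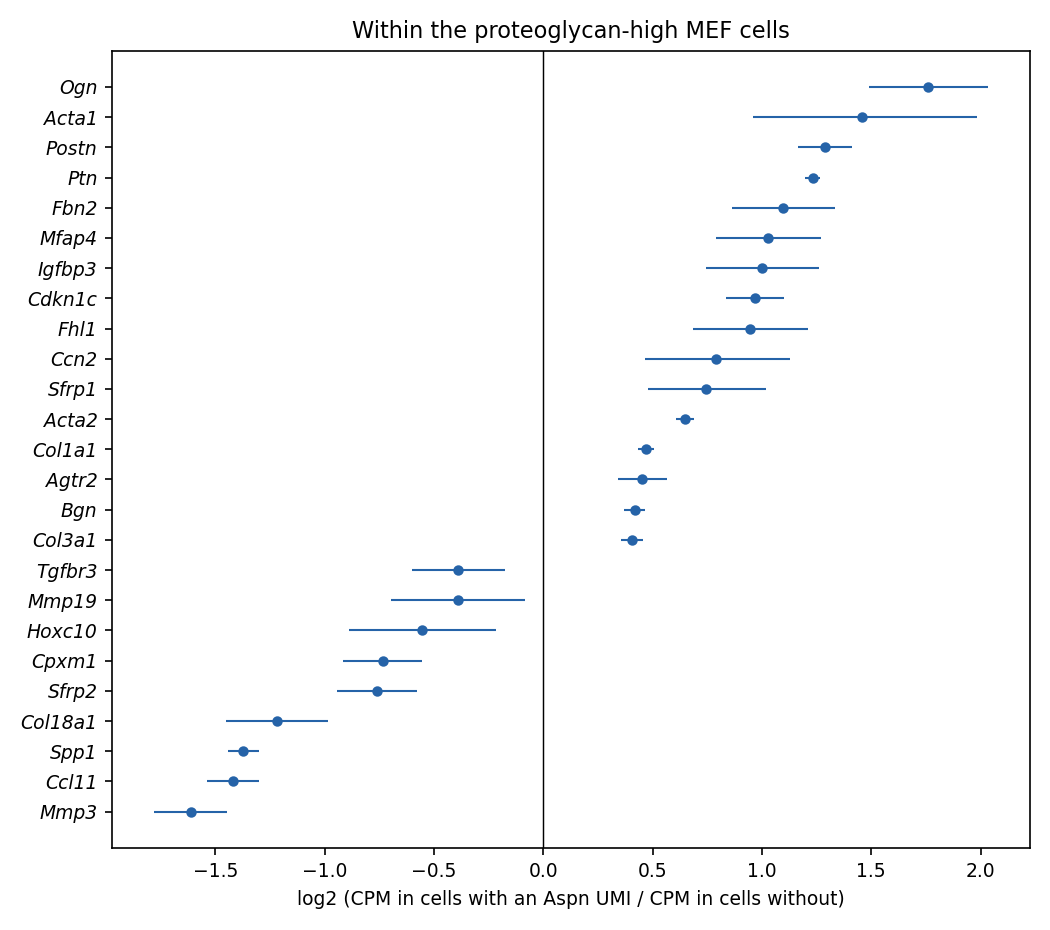
For 25 genes the point is the log2 ratio of CPM in the 352 high cells with an Aspn UMI at 5000 UMIs over the 224 high cells without, and the bar is its exact 95% interval for counting error. Ogn, Postn and Ptn lie to the right, and Mmp3, Ccl11 and Spp1 to the left.

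The same division by Lum, with 221 high cells with and 355 without a UMI, separated other genes. Top2a stood at 29.98 CPM in cells with and 5.54 CPM in cells without Lum, a log2 ratio of 2.44 (1.88 to 3.03), and Pclaf, a clamp-binding factor of replication, at 41.6 and 4.56 CPM. These rest on few cells, since 98.7% of Top2a and 97.4% of Pclaf UMIs in high cells came from the 5% of cells with the most. Ccl11 was lower with Lum, at a ratio of -0.80, and Spp1 at -1.13. Kera, the neighbour of Lum, had 17 UMIs with and 15 without, a ratio of 0.81 whose interval of -0.28 to 1.91 spans 0.

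At matched depth the leading genes listed here kept their direction, while several list medians were nearer to 0. Ranked within 10 bins of total UMIs, where both groups had medians of 19518.5 and 19514 UMIs, Ccl11 was at 3.69, Agtr2 at 3.80, Col3a1 at 1.89, Ogn at 1.40 and Acta2 at -1.87, while Bgn was at -0.00. List medians there were 0.81 for collagens (1.05 above) and -1.46 for G2/M genes (-2.12 above). For the other small proteoglycans the median was 0.13 (0.41 in the main ranking), and for contractile genes -1.19 (-1.22 above). Of 124 genes at least 2-fold higher in this setting, all 124 were among the 202, and of 147 lower 138 were among the 165. With every cell thinned to 5000 UMIs before ranking, 66 genes were at least 2-fold higher and 103 lower.

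In the iMPC library the 3 genes were rarer. Of 9743 iMPC cells 8527 (87.5%) had no UMI of the 3 genes, and Aspn stood at 0.302 CPM over all cells, against 114 CPM in MEF, with Dcn at 64.7 and Lum at 6.58 CPM. The 974 iMPC cells with the highest sum started at 51.9 CPM, far under the MEF edge, and the lowest 974 were again taken in matrix order among equal cells. These iMPC groups also differed in muscle transcripts, with Myog at 142 CPM in the highest against 659 CPM in the lowest and Mymk at 46.3 against 249 CPM. Neither gene had a UMI in the MEF groups, so the iMPC ratios do not describe a range within fibroblasts alone. Side by side with MEF and with no test of the difference, Ccl11 had a log2 ratio of 4.08 there (4.24 in MEF), Agtr2 2.36 (3.69), Postn 3.003 (2.81), Thbs2 4.76 (1.90) and Col3a1 2.53 (1.99). Ogn was lower in the iMPC cells with the highest sum, at 6.41 against 28.4 CPM, and Bgn was higher, at 633 against 69.1 CPM. Acta2 was even there, at 630 and 590 CPM.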

How the data were processed

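Single-cell RNA was captured with the 10x Genomics 3′ kit v3 and sequenced, per the labels' protocols. Both deposited files are sparse matrices of UMI counts, not normalised by the authors, and their headers name Cell Ranger as the software. The submitters' processing notes name Cell Ranger 4.0, Seurat 3.2.3 and GRCm38.p6, and the annotation release and use of strand are not given in the sources used here. The MEF matrix held 6113 barcodes over 26124 genes, and how they were selected is not given in the sources used here. The iMPC matrix listed 6794880 barcodes with 282903287 UMIs. The labels repeat the iMPC treatment text for the MEF sample, while its own treatment label names MEF media, and the latter was used.

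Counts of the cells of a group were summed and divided by the group's total (CPM), with exact conditional 95% intervals of ratios. A group at 0 was set to a floor of 3 UMIs. Genes at 10 CPM or more over all ranked cells were measured, and 24 genes listed for MEF only were left out of iMPC comparisons. Shares of cells were taken after thinning to 5000 UMIs (seed 1). Doublets were kept, since Scrublet marked 2 cells, and the 5% highest scores (289 cells) were left out as an alternative. Named genes were the 15 largest and 15 smallest ratios among genes of 50 CPM or more in the higher group, up to 4 members of each list with the largest ratios, and a fixed set of matrix, contractile and cell cycle genes. The cells, lists and rules were chosen with earlier results of these data known. Of 22 listed matricellular symbols, 5 are older names of listed genes. H19 and Meg3 were not analysed here. One gene that the naming rule picked is not reported here. The code was tested on simulated data. Software was scanpy 1.11.5, matplotlib 3.10.9, pandas 2.3.3, numpy 2.4.6 and scipy 1.17.1 under Python 3.11.15. Promoters came from RefSeq (GRCm38.p6), where 6099 measured genes had one, and exons to leave out from GENCODE M21.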

Additional observations from a re-analysis of the deposited data

How the results depend on the processing

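No paired analysis was possible because each group came from the same single library. The low group is arbitrary among cells with none of the 3 genes and is shallower, no replicate limits these values, and genes near 10 CPM rest on few UMIs. All alternatives were chosen with earlier results known, and 3 low groups (the last such cells, all 696 of them, the second-lowest 10%) were added after seeing these data. Over up to 18 alternatives per result, 57 values stayed near the main one, 45 moved and 2 reversed. Near means within 1.5-fold for counts of genes. For ratios it means inside the main counting interval, and for list medians inside the median limits of the members. For single genes the numbers were 2635, 1542 and 21, and the cause was not tested.

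The 202 genes at least 2-fold higher became 66 with cells ranked after thinning, 87 on Dcn, 3 on Lum, 94 on Aspn, 124 within UMI bins, 337 with the mean of cell CPM, 133 under scaling to the median ratio of genes, 62 at a minimum of 50 CPM, 1113 with no minimum, 846 at 1.5-fold and 119 against the second-lowest 10%. The 165 lower became 103 after thinning, 34 on Lum, 69 on Aspn, 92 without cells with Mki67 or Top2a, 46 at 50 CPM, 1117 with no minimum and 361 at 1.5-fold. Of all genes past 2-fold, 55.04% were higher, 39.5% under median scaling and 73.9% with the mean of cell CPM.

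The median of the other small proteoglycans (0.41) was 0.13 after thinning, -0.17 on Dcn, -0.23 on Lum, 0.86 on Aspn, 0.13 within UMI bins, 0.16 at 50 CPM, 0.76 with no minimum and 0.15 against the second-lowest 10%. At 50 CPM the value is that of Bgn alone, and with no minimum more members of the family count. The collagen median (1.05) was 0.66 after thinning, 0.46 on Dcn, 0.20 on Lum, 0.81 in UMI bins, 1.22 with cell means, 0.90 under median scaling, 0.83 at 10000 UMIs or more, 0.93 with no minimum and 0.63 against the second-lowest 10%. The contractile median (-1.22) was -0.92 after thinning, -1.37 with 5% of cells, -0.59 on Lum, -0.00268 on Aspn, -1.29 without Mki67 or Top2a cells, -1.30 with cell means, -1.38 under median scaling and -1.28 at 10000 UMIs or more. The G2/M median (-2.12) was -1.55 on Dcn, -0.33 on Lum, -1.46 in UMI bins and -0.72 without Mki67 or Top2a cells, where both genes left the list.

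The reversals listed here are those of named genes at least 2-fold apart in the main result. Ranked on Aspn alone the sign reversed for Acta2 (0.060), Actg2 (0.55), Ccl11 (-0.17), Ccn2 (0.43), Col18a1 (-0.93), Ctsl (-0.45), Lmod1 (0.031), Mcam (0.32), Mgp (0.30), Mmp19 (-0.21), Mmp3 (-3.02), Myh11 (0.33), Sfrp2 (-0.70), Tgfb3 (0.20), Tgfbr3 (-0.16) and Wnt5a (-0.10). On Lum alone it reversed for Ccnb2 (0.33), Col18a1 (-0.26), Col6a3 (-0.025) and Gas6 (-0.31), and without Mki67 or Top2a cells for Cdk1 (0.15).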
